A study of Mus musculus with 54 samples.

Results

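The Myh6 and Myh7 locus encodes the alpha and beta myosin heavy chains, the motor proteins of the thick filament in heart muscle. It was taken as the 85 kb window from 55540000 to 55625000 on chromosome 14 of the mouse genome (build mm9). Both genes lie there on the minus strand, with the Myh6 start near 55586000 and the Myh7 start near 55613000. By these approximate positions the Myh7 start lies 27 kb upstream of the Myh6 start. Every enriched region that overlapped this window in any deposited list was taken as a member. There were 299 such regions of 1590704 in all, of which 99 came from H3K4me1 lists, 46 from H3K27ac, 42 from H3K4me3, 107 from RNAPII Ser5P and 5 from H3K27me3. The locus was chosen with its gain of marks during differentiation already known, so its values are given as a description, without a test.

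The study profiled 4 histone marks and the initiating form of RNA polymerase II by ChIP-seq during directed differentiation of 129/Ola mouse embryonic stem cells toward heart muscle. The stages were embryonic stem cells at day 0 (ESC), mesoderm at day 4 (MES), cardiac precursors at day 5.3 (CP) and cardiomyocytes at day 10 (CM), and every library carries the same strain label. Per the labels' protocols, cells were differentiated as embryoid bodies in serum-free medium, reaggregated with VEGF, Activin A and BMP4, then plated with VEGF, basic FGF and FGF10. H3K4me1 had 3 libraries at each stage, H3K27ac and H3K4me3 had 2 each, RNAPII Ser5P had 1 for ESC and 2 for each later stage, and H3K27me3 had 2 for ESC and 3 for each later stage. These 46 libraries have a region list, and 8 whole cell extract libraries were not analysed here. The design calls the replicates biological, without saying that they came from separate cultures. The cell type label of the day 10 H3K27ac libraries reads ESC, but they were placed with CM, as their title, source and time point say. The stage names were not checked against marker genes. Only Myh6 and Myh7 were placed on mm9, and their locus was chosen with its gains known, so it cannot serve as a check. The cultures were profiled in bulk, so fewer cells with a mark and less of the mark per cell cannot be told apart.

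In the mouse, Myh7 is the main ventricular myosin heavy chain before birth, and Myh6, the faster motor, prevails in the adult heart and is also made early in the heart tube. The order of the genes is kept across mammals, and an intron of each gene holds a microRNA, miR-208a in Myh6 and miR-208b in Myh7. H3K4me3 marks active promoters, H3K27ac active promoters and enhancers, and H3K4me1 enhancers and the flanks of promoters. RNAPII phosphorylated on serine 5 of its tail repeat (RNAPII Ser5P) is enriched near starts and early in transcription, and H3K27me3 is the mark of Polycomb repression.

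The promoter windows are shown because the marks described here appear at these starts. Both are from RefSeq on GRCm38.p6, run from 250 bases before to 50 bases after an annotated start, and lie on the minus strand. That build differs from mm9, and no position was carried between them. The Myh6 window is chr14:54966558-54966857 and the window of the more upstream of the annotated Myh7 starts is chr14:54994577-54994876. Capitals mark matches to the motifs named after the sequences.
Myh6: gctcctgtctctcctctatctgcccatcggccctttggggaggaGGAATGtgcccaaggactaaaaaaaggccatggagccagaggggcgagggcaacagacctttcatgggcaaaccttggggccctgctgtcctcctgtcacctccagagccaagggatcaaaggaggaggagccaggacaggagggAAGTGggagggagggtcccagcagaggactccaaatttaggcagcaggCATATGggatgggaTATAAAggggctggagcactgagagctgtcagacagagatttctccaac
Myh7: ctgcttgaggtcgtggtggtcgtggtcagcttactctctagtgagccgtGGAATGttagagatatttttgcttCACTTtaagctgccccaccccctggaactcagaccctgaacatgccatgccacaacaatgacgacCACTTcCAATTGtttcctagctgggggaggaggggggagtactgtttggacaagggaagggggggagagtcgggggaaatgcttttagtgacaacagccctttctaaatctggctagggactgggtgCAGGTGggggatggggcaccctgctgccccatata

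The 9 motifs were searched on both strands. The MEF2 box and the CArG box of serum response factor were searched by their consensus. The letters searched for GATA factors were AGATAA, for NKX2-5 they were AAGTG, for T-box factors AGGTGT, for the M-CAT element of TEAD factors CATTCC, for the E-box CANNTG, for the hexamer of nuclear receptors AGGTCA and for the TATA box TATAAA. Myh6 held an M-CAT match from -206 to -201 relative to the annotated start and an NKX2-5 match from -61 to -57. It also held an E-box from -13 to -8 and the TATA box letters from 2 to 7. These letters lie past the annotated start, and whether they act as a TATA box was not tested. Myh7 held an M-CAT match from -201 to -196, 2 NKX2-5 matches from -177 to -173 and from -112 to -108, and 2 E-boxes from -106 to -101 and from 16 to 21. None of these matches overlapped another. Such matches are common: 14.66% of 32851 mouse promoter windows of the same length held the M-CAT letters, 46.38% the NKX2-5 letters, 72.31% an E-box and 13.62% the TATA box. The letters of the other 5 motifs were not in either window, and they were in 11.18% (GATA), 3.19% (MEF2), 1.63% (CArG box), 13.74% (T-box) and 16.26% (nuclear receptor hexamer) of all windows. A second annotated Myh7 start lies downstream, and its window shares most of these bases. That window held 1 NKX2-5 match and 2 E-boxes but no M-CAT match, so the Myh7 M-CAT match depends on the start used.

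The mature microRNAs of the introns are shown because they are transcribed with their host genes. Capitals mark the seed, bases 2 to 8, and the sequences are from RefSeq.
miR-208a-3p (Myh6): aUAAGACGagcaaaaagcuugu
miR-208b-3p (Myh7): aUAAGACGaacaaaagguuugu
miR-208a-5p (Myh6): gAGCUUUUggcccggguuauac
miR-208b-5p (Myh7): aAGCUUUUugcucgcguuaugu
The 3p arms differed at 3 of 22 positions, counted from 1 at the 5′ end of miR-208a with its base first: G10A, A16G and C18U. The 5p arms differed at 6 of 22 positions, and neither pair differed within the seed, so that each arm forms 1 seed group across the host genes.

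Across the whole window, the share of bases covered by listed regions was higher in every CM library than in every ESC library for H3K4me1, H3K27ac, H3K4me3 and RNAPII Ser5P. H3K27ac covered 25.8% and 25.6% of the window in the CM libraries, against 9.50% and 5.76% in the ESC libraries. H3K4me3 covered 16.5% and 14.6% in CM and 6.74% and 7.88% in ESC. H3K4me1 covered 20.2%, 21.5% and 16.3% in CM, against 7.59%, 5.38% and 6.62% in ESC. These 3 histone marks thus separated all CM from all ESC libraries. For RNAPII Ser5P the CM libraries stood at 28.03% and 70.8% and the single ESC library at 2.53%, again without overlap.

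**Figure D1:**
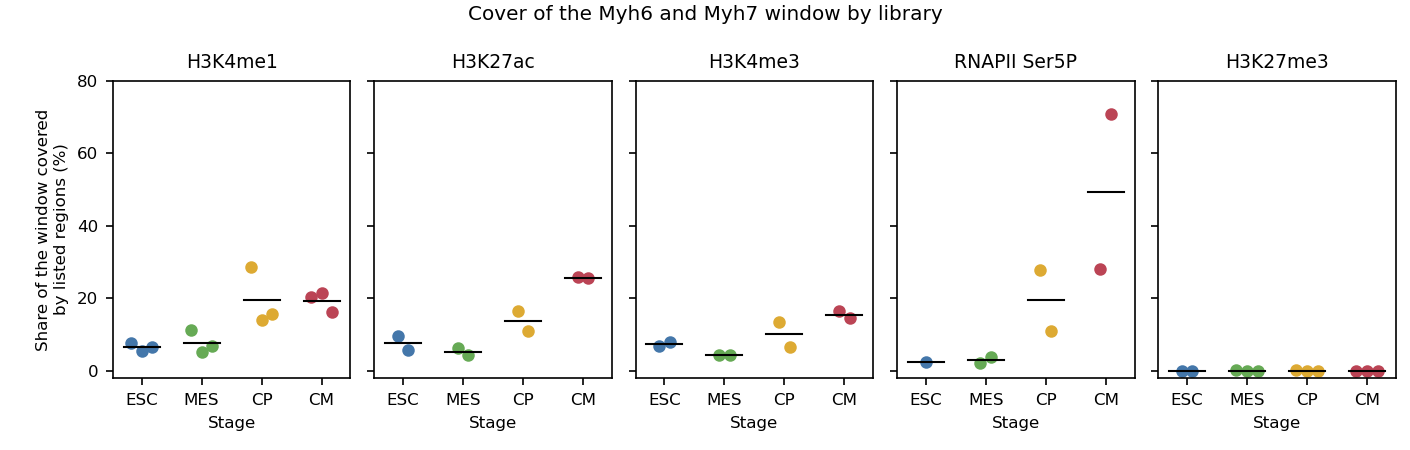
Share of the 85 kb window covered by listed regions (y axis, percent) in each library (points, replicates in order from left to right) at each stage (x axis), with 1 panel per target and the stage mean as a bar. The CM points of H3K27ac sit together at 25.8% and 25.6%, while those of RNAPII Ser5P lie far apart at 28.03% and 70.8%.

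For H3K4me1, H3K27ac, H3K4me3 and RNAPII Ser5P alike, every CP library had more cover than every MES library. These targets differed in how CM stood to CP. From ESC through CM, mean H3K4me1 cover was 6.53 ± 1.11%, 7.74 ± 3.19%, 19.4 ± 7.98% and 19.3 ± 2.72% (SD, n = 3 each). The difference in H3K4me1 lay between CP and MES, whose libraries did not overlap, and CM and CP had nearly the same mean. Mean H3K27ac cover in the same order was 7.63 ± 2.64%, 5.19 ± 1.35%, 13.7 ± 3.79% and 25.7 ± 0.083% (SD, n = 2 each), and both CP libraries lay above both MES and below both CM libraries. Mean H3K4me3 cover was 7.31 ± 0.811%, 4.35 ± 0.042%, 10.0 ± 4.93% and 15.5 ± 1.33% (SD, n = 2 each). One CP library of H3K4me3, at 6.56%, lay below both ESC libraries, and the other, at 13.5%, above them. Both of these CP libraries lay above both MES and below both CM libraries.

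RNAPII Ser5P covered 2.53% of the window in the 1 ESC library and a mean of 2.88 ± 1.21% for MES, 19.5 ± 11.9% for CP and 49.4 ± 30.3% for CM (SD, 2 libraries at each of these stages). The CP libraries stood at 27.9% and 11.03%. CM exceeded CP by 30.0 percentage points in the mean, a difference that 1 library decides: it was 0.118 points with only the replicate 1 libraries and 59.8 points with only the replicate 2 libraries. The list of CM replicate 1 has a lowest peak height of 9 and that of CM replicate 2 of 28, and the part of this difference in the cover was not tested.

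Set against the genome cut into 31054 tiles of the window's length, the locus ranked near the top for RNAPII Ser5P at day 10. The numbers of tiles with more RNAPII Ser5P cover were 3460 in ESC, 1598 and 2834 in MES, 13 and 375 in CP, and 0 and 4 in CM replicates 1 and 2, although these CM libraries differed so much in absolute cover. For all 4 targets, every CM and CP library had fewer tiles above the window than every MES and ESC library. H3K27ac had more cover in 1420 and 2265 tiles in ESC, 1658 and 2243 in MES, 95 and 173 in CP, and 14 and 49 in CM. H3K4me3 had more cover in 1965 and 2026 tiles in ESC, 2319 and 2965 in MES, 193 and 692 in CP, and 36 and 30 in CM. For H3K4me1 the counts were 2403, 1775 and 1931 tiles in ESC, 1624, 4095 and 2639 in MES, 268, 427 and 311 in CP, and 195, 112 and 423 in CM. Among these 3 marks, CM and CP counts overlapped for H3K4me1 only. MES and ESC counts overlapped for H3K27ac and H3K4me1, while for H3K4me3 both MES libraries ranked below both ESC libraries.

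**Figure D2:**
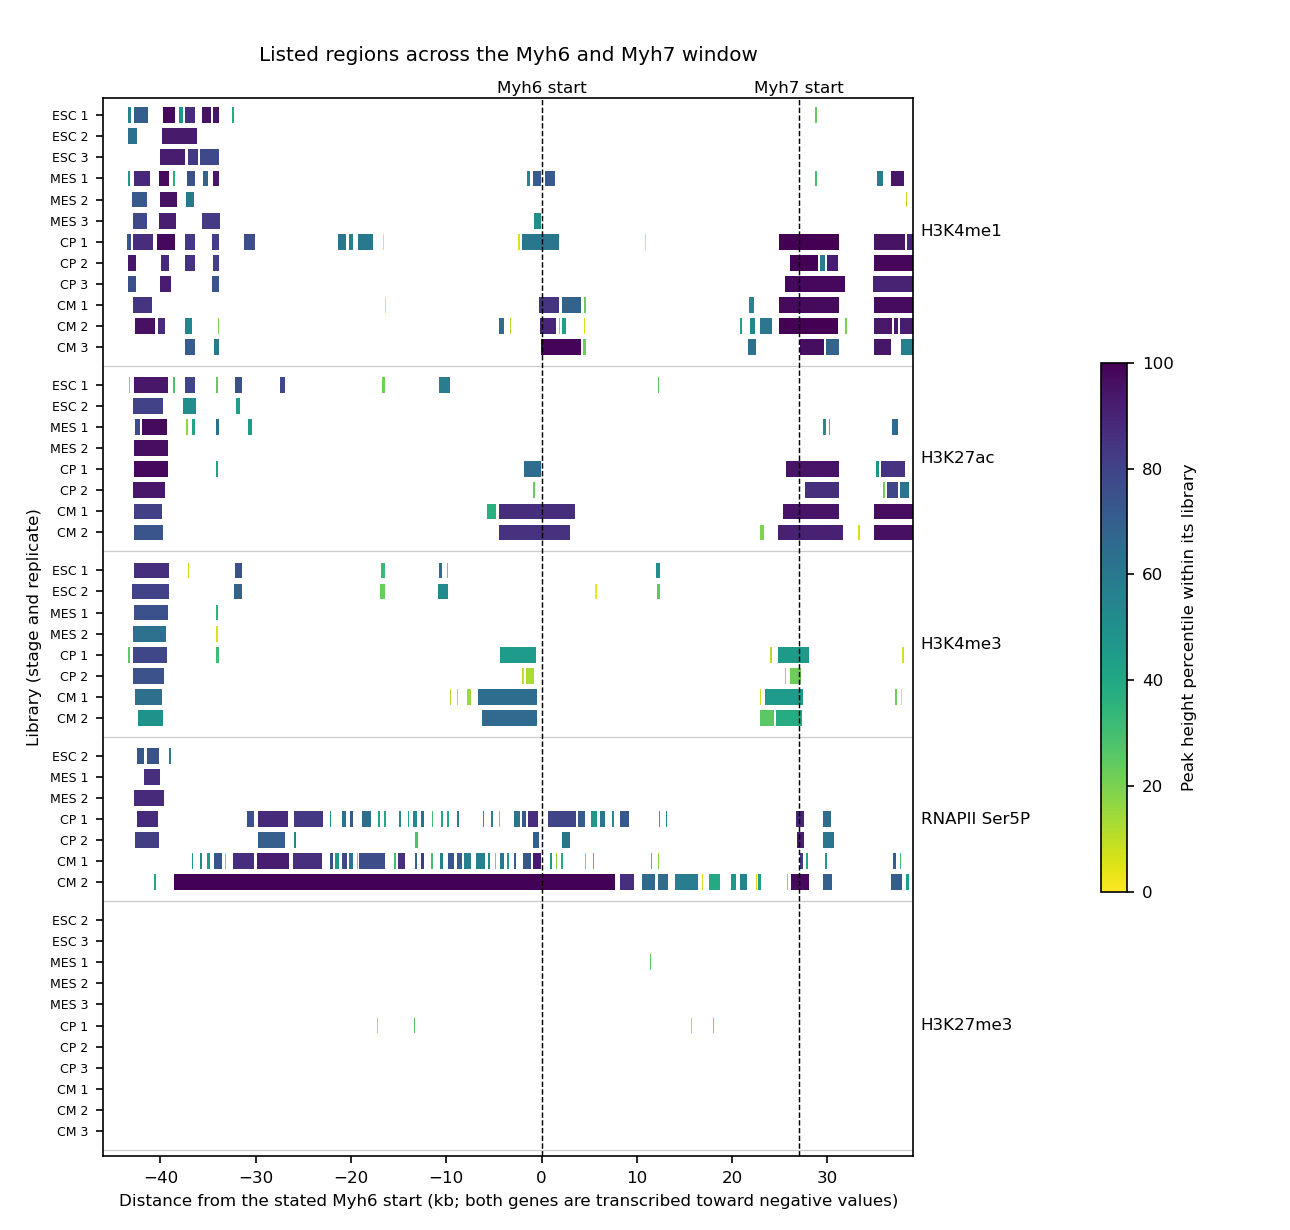
Every listed region of the window in the 46 libraries (rows, grouped by target and ordered by stage), against distance from the stated Myh6 start in kb (x axis), coloured by the percentile of its peak height in its own library. Regions of H3K27ac, H3K4me3 and RNAPII Ser5P appear at both starts in every CP and CM row of these targets. The block near -40 kb is present from ESC on, and the H3K27me3 rows hold 5 short regions in all.

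At the Myh6 start, taken as 2 kb on each side, no ESC library of any target had a region. H3K27ac, H3K4me3 and RNAPII Ser5P had none in any MES library either and had one in every CP and CM library. H3K4me1 differed from this order, with a region in 2 of 3 MES, 1 of 3 CP and 3 of 3 CM libraries. At the Myh7 start the same 3 targets again had no region in ESC or MES and one in every CP and CM library. H3K4me1 was listed there in 1 of 3 ESC, 1 of 3 MES, 3 of 3 CP and 3 of 3 CM libraries, but its ESC and MES regions were only 200 and 225 bases long and more than 1 kb upstream of the start. H3K27me3 had no region at either start in any of 11 libraries.

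Peak heights are the authors' own values, and the lowest height listed differed between libraries, from 9 to 39, so that raw heights of different libraries are not on 1 scale. They are given with their percentile among all regions of their library, and libraries are compared by the percentile. A percentile also depends on how many regions a list holds, which was from 2929 to 96999. H3K4me3 at the Myh6 start had heights of 166 and 134 in the CM libraries, against 115 and 23 in the CP libraries. As percentiles these were 64.6 and 65.8 in CM, against 45.6 and 12.8 in CP. At the Myh7 start the heights were 92 and 66 in CM and 116 and 33 in CP, at percentiles 45.7 and 38.6 in CM and 45.8 and 22.6 in CP. The CM and CP percentiles did not overlap at Myh6 and did overlap at Myh7. Neither start reached the 75th percentile of H3K4me3 heights in any library.

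**Figure D3:**
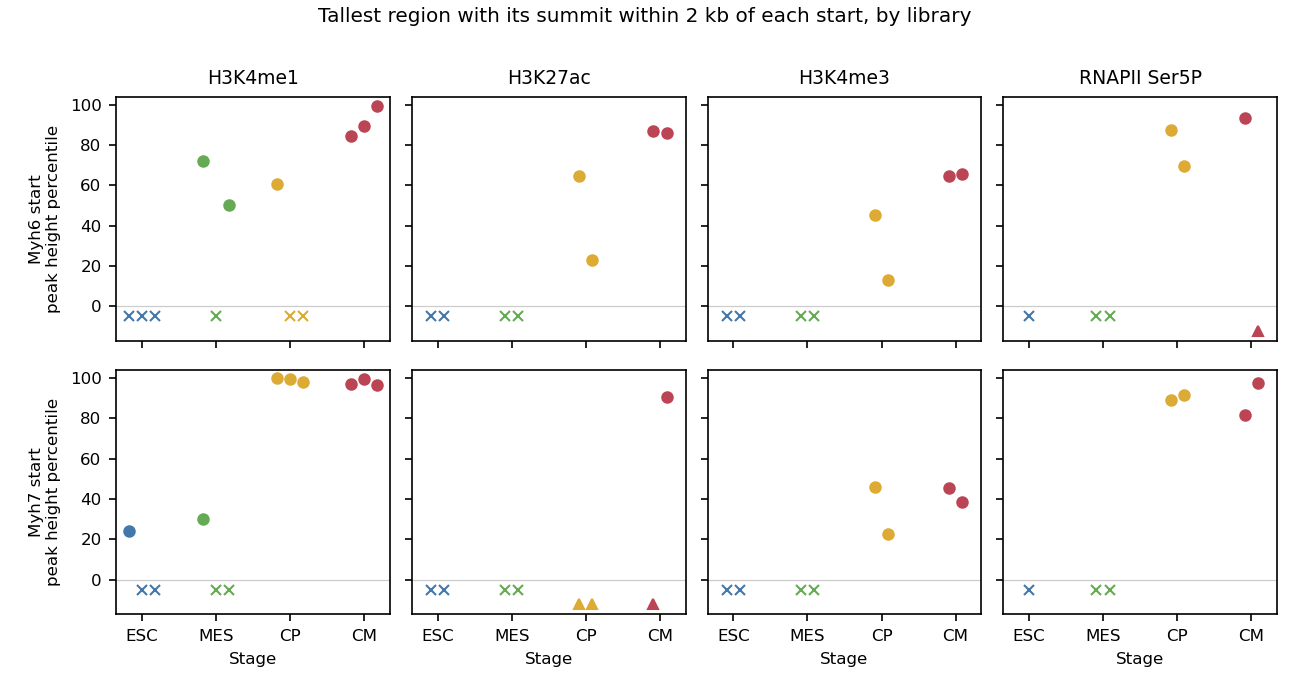
Percentile, within its library, of the tallest region with its summit within 2 kb of the Myh6 start (top row) or the Myh7 start (bottom row), by stage and replicate (circles), in 4 panels by target. Crosses below 0 mark libraries with no region at that start and triangles mark libraries with a region there whose summit lies elsewhere. H3K4me1 at the Myh7 start stands between 96.7 and 99.9 in the 6 CP and CM libraries.

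Within a library the starts can be set against each other directly, and the targets did not give 1 order. For H3K4me3 the ratio of the Myh6 height to the Myh7 height was 1.80 and 2.03 in the CM libraries, against 0.991 and 0.697 in the CP libraries. Myh6 was thus the taller in both CM libraries and in neither CP library. RNAPII Ser5P gave a ratio of 1.63 in CM replicate 1 (heights of 39 at Myh6 and 24 at Myh7), against 0.894 and 0.402 in the CP libraries (42 and 47, and 55 and 137). In CM replicate 2 the Myh6 start lay inside a region 46325 bases long whose summit was elsewhere, so that no ratio could be formed, and the Myh7 region had a height of 194. H3K27ac gave a ratio in CM replicate 2 only, 0.852 (161 at Myh6 and 189 at Myh7), with Myh7 the taller. In CM replicate 1 and both CP libraries the H3K27ac region at Myh7 had its summit more than 2 kb upstream of the start. That region was also taller than the one at Myh6, at 192 against 149 in CM replicate 1. In CP the heights were 229 against 65 in replicate 1 and 154 against 35 in replicate 2. H3K4me1 gave ratios of 0.806, 0.679 and 1.14 in CM and 0.437 in CP replicate 1, the other CP libraries having no region at Myh6. With 2 libraries a stage at most for H3K4me3 and RNAPII Ser5P, these ratios rest on few values.

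**Figure D4:**
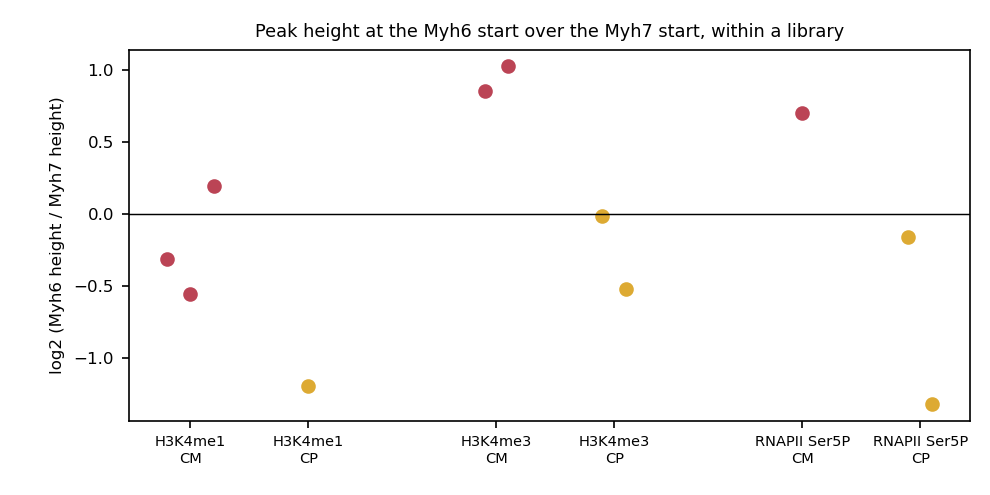
log2 ratio of the peak height at the Myh6 start to that at the Myh7 start within each library (points), by target and stage. For H3K4me3 both CM libraries lie above 0 and both CP libraries below it, with 1 CP library close to 0.

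H3K27ac was broad at the Myh6 start in CM and narrow in CP. The 4 kb around the start were covered in full in both CM libraries, with heights of 149 and 161 at percentiles 86.9 and 85.8. In the CP libraries the regions there were 1825 and 200 bases long with heights of 65 and 35, at percentiles 64.8 and 23.2. The acetylated region in CM spanned 8050 and 7400 bases around the Myh6 start. Cover of the Myh7 start block was 91.3% and 100% in CM and 84.4% and 34.4% in CP, so the stages lie closer together there than at Myh6. In CM replicate 1 and both CP libraries the summit of that region lay further upstream than the 2 kb block, at 55616137, 55616162 and 55616137, and in CM replicate 2 it lay at 55613812.

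H3K4me1 at the Myh7 start was among the tallest of its libraries at both late stages. Its percentiles were 97.3, 99.7 and 96.7 in CM and 99.9, 99.5 and 97.9 in CP. The CP replicate 1 region, with a height of 174 and a length of 6250 bases, ranked 112 by height among 82089 regions. At the Myh6 start the CM percentiles were 84.7, 89.4 and 99.2, and those of the 2 MES libraries and 1 CP library with a region were 71.8, 50.1 and 60.8. The tallest H3K4me1 region of the whole window was at the Myh7 start in all 3 CP libraries and 2 of 3 CM libraries, and at the Myh6 start in CM replicate 3.

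Summits of RNAPII Ser5P recurred at nearly the same places in different CP and CM libraries, and those of H3K4me1 and H3K4me3 were more spread out. At Myh6 and Myh7 the summits spread over 25 and 75 bases for RNAPII Ser5P. The spreads were 1425 and 525 bases for H3K4me1, and 575 and 675 for H3K4me3. RNAPII Ser5P summits at the Myh6 start lay between 663 and 688 bases downstream of the stated position in the 3 CP and CM libraries with one. At the Myh7 start the 4 summits lay between 262 and 337 bases upstream of the stated position. The stated positions are approximate, so the distances locate the summits against each other and not against the first transcribed base. H3K4me3 summits at Myh6 lay further downstream, between 1313 and 1888 bases downstream of the stated start in CP and CM. H3K4me1 summits at Myh7 lay on the other side, between 762 and 1287 bases upstream of the stated start in the 6 CP and CM libraries. In both CM libraries the H3K4me3 region at Myh6 ended upstream at the same base, 55585500, while its other end lay at 55579301 and 55579726.

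Downstream of the Myh6 start, over the stretch from 2 to 26 kb downstream of it, RNAPII Ser5P had no region in ESC or MES. It covered 53.9% and 100% of this stretch in the CM libraries, against 34.6% and 2.50% in the CP libraries. In CM replicate 2 it was part of 1 region from 55547401 to 55593725, which was the second longest of the 12805 regions of that library and had the second highest signal total. In CM replicate 1 the same ground was broken into many of its 43 regions, the longest being 3325 bases. Beyond that stretch, each of these libraries had an RNAPII Ser5P summit, 27488 and 28263 bases downstream of the Myh6 start in CM. In CP it lay 27363 and 27463 bases downstream. In CM replicate 2 it was the summit of the long region itself and not of a separate one. The region with this summit was the tallest of the downstream end of the window in both CM libraries. In CP a region at the far end was as tall in replicate 1 (44 for both) and taller in replicate 2 (82 against 56). Between the starts, RNAPII Ser5P covered 2.17% and 65.8% in CM and 21.4% and 3.80% in CP, and these ranges overlap.

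**Figure D5:**
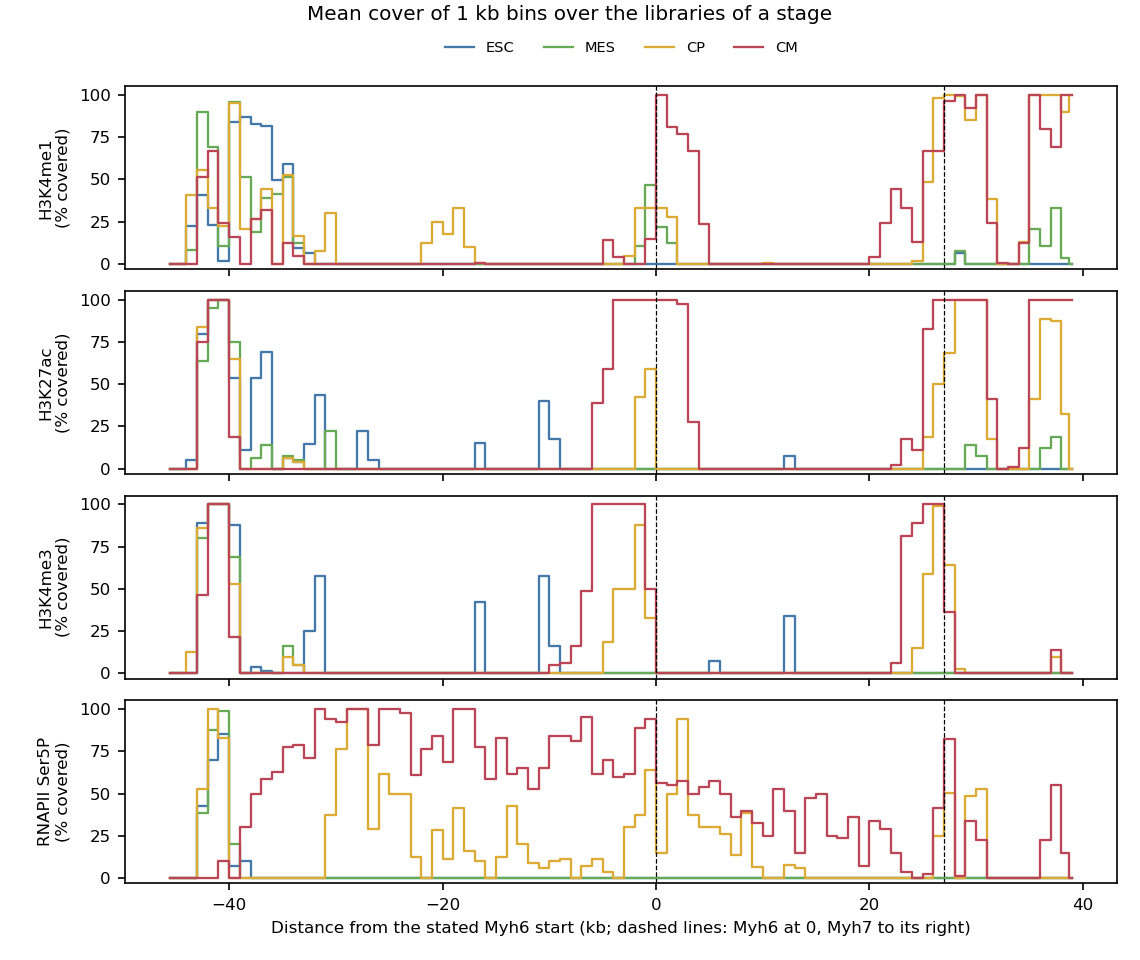
Mean share of each 1 kb bin covered by listed regions (y axis, percent) over the libraries of a stage (lines), against distance from the stated Myh6 start in kb (x axis), with dashed lines at the Myh6 start (0) and the Myh7 start (27). The CM line of RNAPII Ser5P stays high across the ground left of the Myh6 start, where H3K4me3 and H3K27ac end within a few kb.

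Upstream of Myh7, a further element from 55620876 to 55625075 carried the tallest H3K27ac region of the window in CM. Its H3K27ac heights were 214 and 229 in CM, 147 and 118 in CP, 60 in 1 of 2 MES libraries, and no region was listed in ESC. The CM percentiles were 96.8 and 96.0, the CP percentiles 84.8 and 78.7, and the MES percentile 65.8. H3K4me1 was listed over the element in 0 of 3 ESC, 2 of 3 MES, 3 of 3 CP and 3 of 3 CM libraries. In MES replicate 2 this was 1 region of 100 bases at percentile 9.56. RNAPII Ser5P was listed there in both CM libraries and in no earlier one. H3K4me3 covered only 275 bases there in 1 CM library and 200 bases in 1 CP library, at percentiles of 22.4 in CM and 7.24 in CP. The element thus carried H3K27ac and H3K4me1 with little H3K4me3, unlike the starts of Myh6 and Myh7.

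The window cuts this element's surroundings. Just outside it, an H3K27ac region from 55627276 to 55629250 was listed in both CM libraries and in no earlier one, 2275 bases past the edge. Another H3K4me3 region, from 55633126 to 55635250, lay 8125 bases past the same edge and was listed in all 8 H3K4me3 libraries. At the other edge the nearest regions outside were at most 200 bases long, each in 1 library of its target.

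Gains and losses were counted over regions merged across all libraries of a target. A gain from ESC to CM meant a region in every CM library and no ESC library, and a loss the reverse. H3K4me1 had 4 gains among 21 regions of the window, where 5.25% of all its regions were gained, and no loss, where 4.24% were lost. H3K27ac had 3 gains among 17 regions, against 5.31% gained in all, and 2 losses, against 9.25%. H3K4me3 had 2 gains among 16 regions, at the Myh6 and Myh7 starts, against 1.46% in all, and 4 losses, against 25.8%. RNAPII Ser5P had 6 gains among 18 regions, against 1.06%, and 1 loss, against 44.7%. H3K27me3 had neither among 5 regions, where 0.43% were gained and 0.348% lost. Since the locus was chosen for these gains, nothing is read from its shares, and the RNAPII Ser5P count depends on the long region of CM replicate 2, which joins many into 1.

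By step, both H3K4me3 gains fell between MES and CP, where 0.636% of all H3K4me3 regions were gained. In the same step RNAPII Ser5P had 3 gains (1.37% in all), H3K27ac 1 (2.66% in all) and H3K4me1 none (1.44% in all). Between CP and CM, H3K4me1 had 2 gains (1.93% in all) and RNAPII Ser5P 2 (0.38% in all), while H3K27ac (3.66% in all) and H3K4me3 (0.892% in all) had none. The merged H3K27ac region that takes in the Myh7 start, and the element upstream of it, each held a region in 1 of 2 MES libraries, with heights of 45 and 60, and so did not count as gained in CP. The first of these MES regions, from 55615576 to 55615850, lay upstream of the 2 kb taken as the Myh7 start.

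The 4 losses of H3K4me3 lay between the block at the downstream end of the window and the Myh7 start. They were the regions from 55553701 to 55554575, from 55569051 to 55569550, from 55575176 to 55576200 and from 55598051 to 55598425, of 375 to 1025 bases. Their heights in the ESC libraries were 122 and 171, 31 and 51, 69 and 100, and 45 and 54, in that order. H3K27ac was listed at the first in both ESC libraries and at each of the others in 1. No ESC or MES library had RNAPII Ser5P at any of the 4, and both CM libraries had it at all of them. The number lost, 4 of 16 regions, is 25.0% and near the 25.8% of all H3K4me3 regions.

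A block at the downstream end of the window had marks at every stage. Its H3K4me3 region, from 55543026 to 55546875, had heights of 213 and 257 in ESC, 261 and 293 in MES, 298 and 178 in CP, and 163 and 92 in CM. Its percentiles in the same order were 86.1 and 80.3, 75.1 and 63.3, 78.6 and 74.7, and 63.7 and 49.4. The ESC lists were longer, with 54528 and 42092 regions against 27732 and 21264 in CP. By rank from the tallest, the block stood at 7607 and 8307 in ESC and at 5947 and 5375 in CP. Its order between ESC and CP is thus the reverse by rank. It was listed with H3K27ac in all 8 libraries, and with RNAPII Ser5P in all but CM replicate 1, where it had none. Its RNAPII Ser5P region in CM replicate 2 was 200 bases long. No gene is assigned to it. In the RefSeq gene order, Cmtm5, Il25, Efs and Slc22a17 follow on the downstream side of Myh6, and Ngdn is the next protein-coding gene upstream of Myh7. The long non-coding RNA genes Gm52092 and Mhrt come between Myh6 and Myh7 in that order, and Mhrt is known as an antisense transcript of Myh7.

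The block gives a yardstick inside each library. For H3K4me3 the Myh6 height was 1.02 and 1.46 times that of the block in CM, against 0.386 and 0.129 times in CP. The Myh7 height was 0.564 and 0.717 times that of the block in CM and 0.389 and 0.185 times in CP. H3K27ac at Myh6 was 1.19 and 1.46 times the block in CM and 0.240 and 0.167 times in CP. In these 3 measures every CM value exceeded every CP value. The block's own percentile was lower in CM, however, at 63.7 and 49.4 for H3K4me3 in CM and 78.6 and 74.7 in CP, and at 80.8 and 73.7 for H3K27ac in CM and 98.0 and 94.0 in CP. The part of this difference in the ratios was not tested.

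H3K27me3 was all but absent from the locus. Regions were listed in 2 of 11 libraries, as 1 region of 100 bases in MES replicate 1 and 4 regions of 25 to 75 bases in CP replicate 1. Their percentiles were 26.3 or lower, and none lay at either start. So little H3K27me3 was common across the genome. In the 11 libraries, between 1137 and 6170 of the 31054 tiles had more H3K27me3 cover than the window, so most tiles had no more. Some lists were also short, with 3252 regions in ESC replicate 3 and 2929 in CM replicate 3. The ESC libraries, which had no listed region of H3K4me3, H3K27ac or RNAPII Ser5P at the starts, had no H3K27me3 in the window either. A region that was not listed may still carry signal below the caller's limit, which is not given in the sources used here.

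The regions most like the H3K4me3 regions at the starts were found across the genome by correlation over the 46 libraries. The values correlated were the percentiles of the tallest overlapping region, with 0 where there was none. The libraries share antibodies and stages, so the coefficients describe the pattern of listing and have no p-value. For the Myh6 H3K4me3 region the highest were chr1:137732851-137735475 (r = 0.904), chr18:10784751-10787725 (r = 0.874) and chr2:113875826-113879325 (r = 0.855). For the Myh7 region they were chr6:116599876-116602825 (r = 0.973), chr14:32021126-32024000 (r = 0.950) and chr6:119143901-119145325 (r = 0.949). Among 63334 candidates 1 exceeded 0.9 for Myh6 and 13 did for Myh7, and between the Myh6 and Myh7 regions r was 0.641. The merged Myh6 H3K4me3 region ends at 55585500, downstream of the stated start, and H3K4me1 was listed over it in 1 of 3 CM libraries. Within 2 kb of the Myh6 start H3K4me1 was listed in 3 of 3, and over the Myh7 region also in 3 of 3. The part of this edge in r was not tested. Each of the most alike regions is given by position in mm9, without a gene name.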

How the data were processed

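Libraries were grouped by stage and target from the labels. Per the submitters' processing notes, the authors aligned reads with Bowtie to mm9, with no version given. How regions were called is not given in the sources used here. Peak heights and target and background totals are the authors' deposited signal values, on a scale that is not stated, and the depth of each library is unknown, so no counting interval is given. Region lengths are deposited in bases, a unit recorded as other. One list without a header was read in the column order of the others.

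All steps were run in Python 3.11.15 with numpy 2.4.6 and pandas 2.3.3 on chromosomes 1 to 19 and X, and were tested on simulated intervals. Window cover, tile ranks, calls within 2 kb of each start and height percentiles were computed per library. Regions were merged across libraries, with an overlap of at least 1 base counting as a call. No 2 lists were identical. The members and lists were chosen with earlier results of these data known, so no test was made. Beyond Myh6, Myh7 and their microRNAs, the regions named as most alike were the 3 with the highest correlation to the H3K4me3 region at each start. Alternatives merged regions closer than 1 kb, left out those under 500 bases, took equal numbers of top regions, shortened the window by 10 kb at both ends, changed the start width to 1 and 5 kb, and left out replicates.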

Additional observations from a re-analysis of the deposited data

How the results depend on the processing

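The difference in cover between CM and ESC kept its direction for H3K4me1, H3K27ac, H3K4me3 and RNAPII Ser5P under every alternative tried, and was 0 throughout for H3K27me3. For H3K4me1 it was 12.8 percentage points (11.2 to 14.4 with a replicate left out) and for H3K27ac 18.1 points (16.3 to 19.9). For H3K4me3 it was 8.22 points, 9.97 with regions closer than 1 kb merged, 12.3 in the shortened window, and 6.71 to 9.74 with a replicate left out. For RNAPII Ser5P it was 46.9 points, and 68.3 without replicate 1. Without replicate 2 no value could be had, since the only ESC library carries that number. Differences taken within a replicate number, as a replicate block, gave 12.8 points for H3K4me1, 18.1 for H3K27ac, 8.22 for H3K4me3 and 68.3 for RNAPII Ser5P, and 0 for H3K27me3. Between successive stages, H3K27ac CP minus MES was 8.51 points and 4.83 in the shortened window. H3K4me3 CP minus MES was 5.69 points, 2.24 without replicate 1 and 9.15 without replicate 2. H3K4me3 CM minus CP was 5.49 points, 8.03 without replicate 1 and 2.94 without replicate 2. RNAPII Ser5P CP minus MES was 16.6 points, 7.29 without replicate 1 and 25.9 without replicate 2, and 25.0 with regions closer than 1 kb merged. H3K4me1 CP minus MES was 11.7 points and 7.41 in the shortened window, and its CM minus CP, -0.098 points, lay between -3.82 and 4.04 with a replicate left out. H3K4me1 MES minus ESC was 1.21 points and -0.0441 without replicate 1. H3K4me3 MES minus ESC was -2.96 points and -1.84 with equal numbers of regions. Calls at the starts moved in 6 of 120 settings, of which 5 were H3K4me1, whose ESC and MES calls at the Myh7 start were lost with 1 kb on each side and with equal numbers of regions. Equal numbers of regions also removed the only CP call of H3K4me1 at the Myh6 start, and 5 kb on each side added 1 MES call of H3K27ac at the Myh7 start. The cause of these shifts was not tested. No depth is known, so a region that was not listed may lie below a limit that differs between libraries.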
